A study of Mus musculus with 6 samples.

Results

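Cystatins and cathepsins, the inhibitors and proteases that govern much of the protein breakdown in and around lysosomes, were followed in MLO-Y4 cells after low-intensity pulsed ultrasound (LIPUS). The 10 genes were chosen by symbol and comprise the cystatin genes Cst3, Cst6 and Cstb, the cysteine cathepsin genes Ctsb, Ctsc, Ctsk, Ctsl, Ctss and Ctsz, and the aspartic cathepsin gene Ctsd. All 10 were found among the 53797 genes of the table, each in a single row. MLO-Y4 is an osteocyte-like murine cell line, so that all cultures descend from the same line. The LIPUS group was 3 cultures stimulated for 20 min at 1.5 MHz and 30 mW/cm2, the Control group was 3 untreated cultures, and RNA was taken 30 min after the stimulation. LIPUS and Control wells shared a culture plate, with the transducers under the Control wells unplugged, and the study names leakage of the stimulus into Control wells as possible. It also describes 1 of the Control libraries as standing apart from the other Control libraries, and its weight in the pooled values cannot be read from the table. The measurement for a gene is a single FPKM per group (fragments per kilobase of exon per 1e6 mapped reads), pooled by the authors over the 3 libraries of the group. The table holds no value of a single library and no read count, so no SD, interval or p-value is given, and no difference below has a replicate check.

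Cystatins are small proteins that block the active-site cleft of papain-like cysteine proteases. Cst3 encodes cystatin C, a secreted inhibitor that is produced by most cells and is known to restrain bone resorption. Cstb encodes stefin B, which stays inside the cell, and Cst6 encodes the secreted cystatin M/E. The cathepsins that they oppose are made as inactive precursors and mature in acid compartments. Ctsk encodes cathepsin K, the collagen-degrading enzyme of osteoclasts, which osteocytes are also known to use when they remodel the matrix around their lacunae. Ctsd encodes an aspartic protease, which cystatins are not known to inhibit.

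Cst3 was the most abundant of the 10 genes in both groups. Of the 8 members with a mean FPKM of at least 1, 7 were higher in LIPUS. The share was 49.8% over all genes past that minimum, and 63.0% over those with a mean FPKM of at least 100. Cst3 had an FPKM of 454 in Control and 594 in LIPUS, 1.31-fold higher. The widest differences among the well-expressed members were those of the endopeptidase genes Ctsl (173 in Control and 251 in LIPUS, 1.45-fold) and Ctsb (320 and 451, 1.41-fold). Ctsc was lower, at 16.4 FPKM in Control and 12.96 in LIPUS. None of these differences reached 1.5-fold.

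In Control the levels could be read as a high, a middle (Ctsk and Ctsc) and a trace class. In Control cells the order from high to low was Cst3, Ctsb, Cstb, Ctsz, Ctsl, Ctsd, Ctsk, Ctsc, Ctss and Cst6. The first 6 lay between 145 and 454 FPKM, and neighbours among them differed by at most 1.45-fold. Since no spread between cultures is known, it cannot be said which of these neighbours differ beyond it. Ctsd exceeded Ctsk by 3.44-fold in Control, and Ctsc exceeded Ctss by 45.4-fold. Inside the middle class, Ctsk exceeded Ctsc by 2.57-fold in Control. In LIPUS that step was 4.13-fold, wider than the 3.12-fold step from Ctsd to Ctsk, so the classes describe Control only. In LIPUS cells Ctsl moved from place 5 to place 3 of the order, above Cstb and Ctsz, while Cst3 and Ctsb kept places 1 and 2. Among all genes of the table Cst3 held rank 187 in Control and rank 157 in LIPUS.

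**Figure D1:**
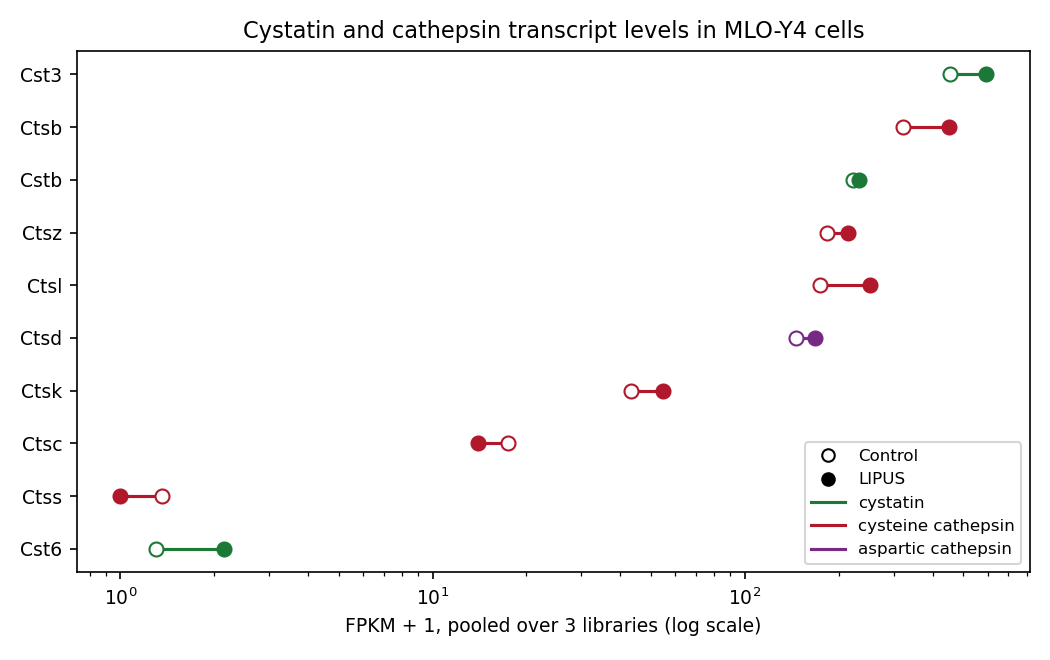
FPKM + 1 of each gene on a log axis, open points for Control and filled points for LIPUS, each a value pooled over 3 libraries, with colours for the class. Cst3 lies highest in both groups (454 and 594 FPKM), Ctsc and Ctss lie lower in LIPUS, and Ctss and Cst6 lie near the left end.

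Among the inhibitors, the secreted Cst3 and the intracellular Cstb differed in how far the groups lay apart. On the log2(FPKM + 1) scale used for all ratios here, Cst3 had a LIPUS over Control ratio of 0.39. Cstb had 221 FPKM in Control and 231 in LIPUS, a log2 ratio of 0.06, so that its groups nearly coincided. Cst6 had 0.298 FPKM in Control and 1.14 in LIPUS, a log2 ratio of 0.72. Its linear ratio of 3.83 rests on values near the bottom of the table, and the authors' program marked it as not tested for too little data. The same mark was given to Ctss, and the other 8 genes were marked as testable. Among the genes named below that are not members, Fetub, Ctsf, Neu1, Tfeb and several cell type markers carry it too. Cst3 lies on the minus strand of chromosome 2 of GRCm38 from 148871722 to 148875692, Cstb on the plus strand of chromosome 10 from 78425669 to 78427622, and Cst6 on the minus strand of chromosome 19 from 5344705 to 5349574.

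Among the 6 proteases of the 10 genes that passed a mean FPKM of 1, Ctsl, Ctsb and Ctsk had the highest ratios and Ctsc the lowest. The log2 ratio was 0.53 for Ctsl and 0.49 for Ctsb. Ctsk had 42.2 FPKM in Control and 53.6 in LIPUS, a log2 ratio of 0.34. Ctsz, which encodes a carboxypeptidase, had 183 and 213 FPKM, a log2 ratio of 0.22. Ctsd had 145 and 167 FPKM, a log2 ratio of 0.20. Ctsc encodes the dipeptidyl peptidase that activates the serine proteases of immune cell granules, and its log2 ratio was -0.32. Ctss, the cathepsin of antigen-presenting cells that processes the invariant chain, had 0.362 FPKM in Control and is listed at 0 in LIPUS. The cathepsin genes with a level above 100 FPKM in Control (Ctsb, Ctsz, Ctsl and Ctsd) were higher in LIPUS. So were 63.0% of all genes with a mean FPKM of at least 100.

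Some of these values share exons with another gene. Ctsd, on the minus strand of chromosome 7 from 142375911 to 142388038, shares 808 exonic bases (34.4% of its exonic length) with Gm49369, a protein-coding gene of the same strand. Gm49369 had 34.0 FPKM in Control and 62.2 in LIPUS, and how reads of the shared exons were divided between the 2 genes cannot be read from the table, so the value of Ctsd is uncertain. Ctsb, on the plus strand of chromosome 14 from 63122462 to 63145923, shares 774 exonic bases with Fdft1 on the opposite strand, which had 23.9 and 18.4 FPKM. Ctsl, on the minus strand of chromosome 13 from 64359337 to 64370890, shares 1742 exonic bases with the antisense gene Gm47123, which stayed below 1 FPKM in both groups, and 395 exonic bases with Gm49230, a processed pseudogene on the same strand that is listed at 0 in both groups. Ctsz shares 10 exonic bases with Nelfcd. No gene overlaps Cst3, Cst6, Cstb or Ctsk. The libraries were stranded, but whether the FPKM used the strand is not given in the sources used here.

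Over the whole table the background was as follows. A mean FPKM of at least 1 over both groups was reached by 11536 genes, among them 8 of the 10 members, all but Cst6 and Ctss. A ratio of 1.5-fold or more was found in 5.63% of these genes as higher and in 5.95% as lower with LIPUS, and in 0 of the 8 members in either direction. At a log2 ratio of 0.322 or more in size, 4 of the 8 members were higher (Cst3, Ctsb, Ctsk and Ctsl) and 0 were lower, against 14.6% and 15.4% of the genes, with Ctsc (-0.320) just inside that line. This split depended on the setting: it became 3 higher (without Ctsk) and 1 lower (Ctsc) when both groups were scaled to the same sum, and 4 higher and 1 lower (Ctsc) with a pseudocount of 0.1 FPKM. Of the 8 members, 7 had a ratio above 0, against 49.8% of the genes. The median log2 ratio was 0.28 over the 8 members and -0.0017 over the 11536 genes.

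**Figure D2:**
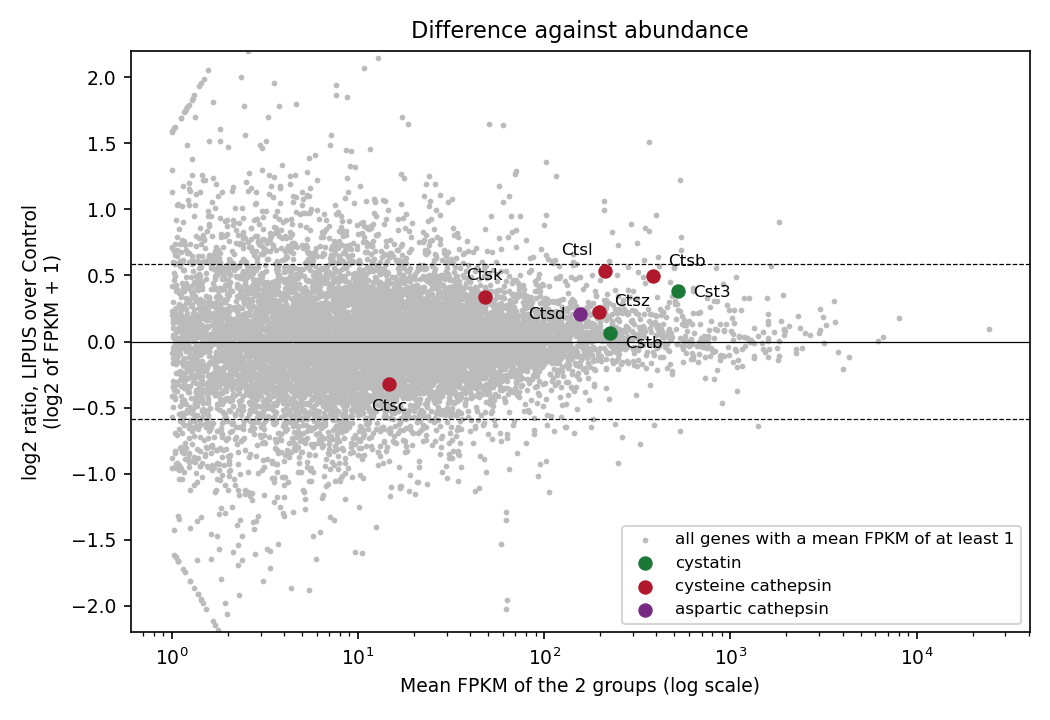
Log2 ratio of LIPUS over Control against mean FPKM (log axis) for the 11536 genes with a mean FPKM of at least 1, with the 8 members in colour and dashed lines at 1.5-fold. The members lie inside the dashed lines, 7 of them above 0 and Ctsc (-0.32) below, and 37 genes lie outside the drawn range.

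The members were also placed among genes of like level, since a ratio of 1.5-fold was rarer in abundant genes. Between 1 and 10 FPKM, 9.12% of the genes were higher and 10.1% lower by that fold, between 10 and 100 FPKM 3.15% and 3.22%, and from 100 FPKM on 3.05% and 1.68%. Of the 952 genes of the most abundant class, 8.82% were higher and 4.31% lower by a log2 ratio of 0.322 or more, and the median log2 ratio was 0.05. This class leaned to higher values, with 63.0% of its genes above 0. Cst3 is one of 65 genes of the class (6.83%) with a log2 ratio of 0.39 or more. The ratio of Ctsb was reached by 44 genes (4.62%) and that of Ctsl by 38 genes (3.99%), each counted with the gene itself. By contrast, 438 genes (46.0%) were as high as Cstb, 166 (17.4%) as high as Ctsz and 189 (19.9%) as high as Ctsd. Among the 5784 genes between 10 and 100 FPKM, of which 11.2% were higher and 11.4% lower by 0.322 or more, 606 (10.5%) were as high as Ctsk and 662 (11.4%) as low as Ctsc. Cst3, Ctsb and Ctsl thus lay towards the upper end of genes of their abundance, and Cstb lay near the middle. These shares describe the pooled values and are not tests across cultures.

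**Figure D3:**
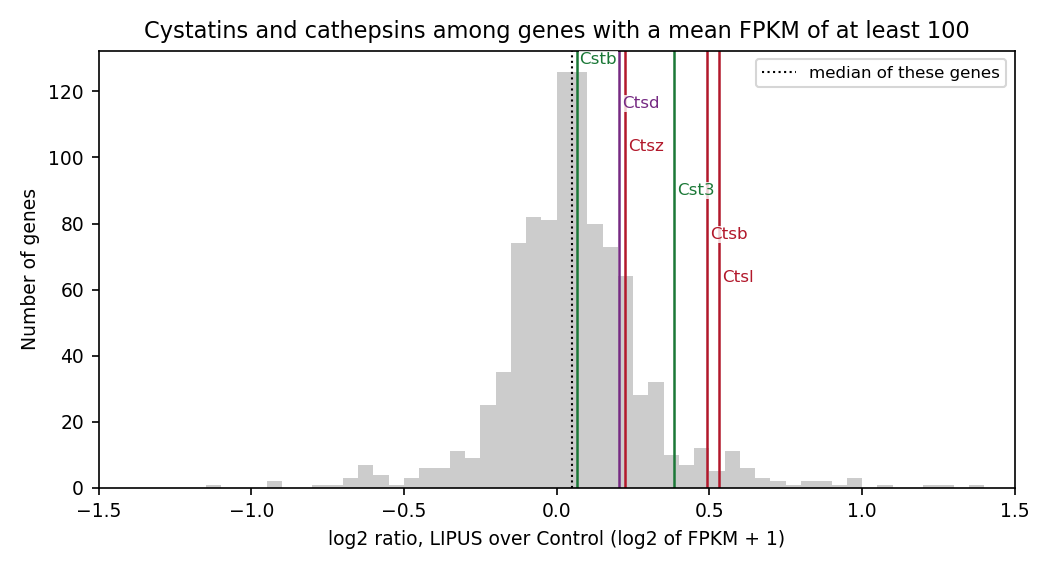
Histogram of the log2 ratio of LIPUS over Control for the 952 genes with a mean FPKM of at least 100, with a dotted line at their median (0.05) and coloured lines for the 6 members of this class. Cstb (0.06) lies beside the median, while Cst3 (0.39), Ctsb (0.49) and Ctsl (0.53) lie in the right tail, and 2 genes lie outside the drawn range.

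Because FPKM is a level per length, transcripts of inhibitors and of cysteine proteases were summed. The cystatins summed to 675 FPKM in Control and 826 in LIPUS, 1.22-fold higher. The 6 cysteine cathepsins summed to 735 and 981 FPKM, 1.34-fold higher. The ratio of cystatin to cysteine cathepsin transcripts was 0.920 in Control and 0.842 in LIPUS, so that the pooled protease sum was the larger in both groups. Since no spread between cultures is known, it cannot be said whether the sums differ beyond it. Cst3 made up 67.3% of the cystatin sum in Control and 71.9% in LIPUS. Ctsb and Ctsl together held 67.1% of the cathepsin sum in Control and 71.5% in LIPUS, and they accounted for 84.5% of the difference between the sums. Ctsk held 5.74% and 5.46% of the cathepsin sum. Cst3 transcripts outnumbered those of Ctsk by 10.8-fold in Control and 11.1-fold in LIPUS. All 10 genes together held 0.260% of the summed FPKM of all genes in Control and 0.320% in LIPUS.

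**Figure D4:**
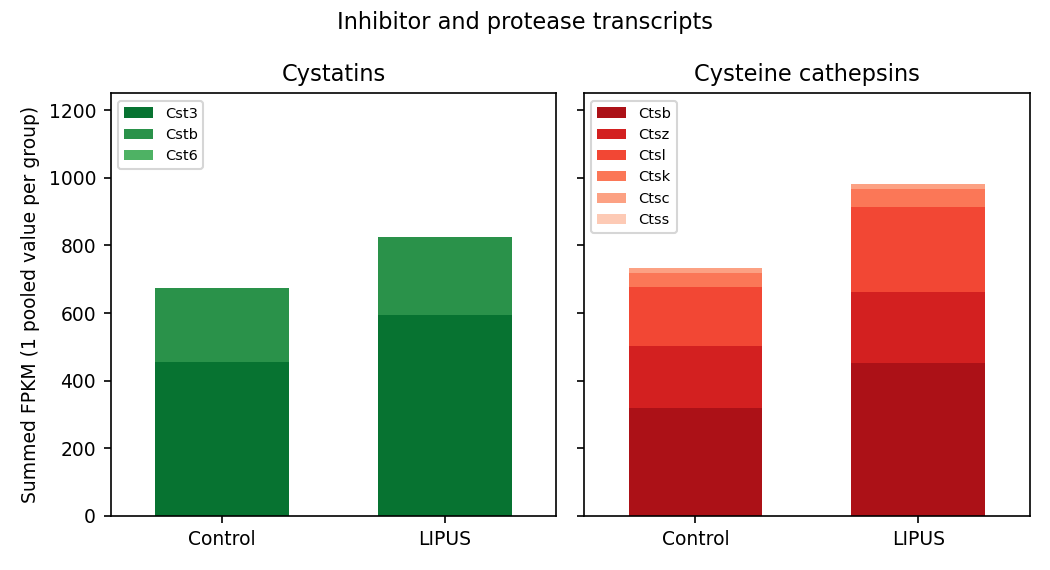
Summed FPKM of the cystatin genes (left) and of the cysteine cathepsin genes (right) in Control and LIPUS, stacked by gene, with 1 pooled value per group and no error bars. Cystatins reach 675 and 826 FPKM and cysteine cathepsins 735 and 981 FPKM, and the segments of Ctsb and Ctsl differ most between the groups on the right.

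The wider families held few other expressed genes. Of 25 cystatin symbols searched, 23 were found and 16 were listed at 0 in both groups, among them the stefin A genes and the reproductive tract cystatins Cst8, Cst11 and Cst12. The 3 further family genes past the minimum were Kng1, Kng2 and Fetub. Kng1 and Kng2 encode kininogens, which carry cystatin domains and are the precursors of kinins. Kng1 had 7.53 FPKM in Control and 17.0 in LIPUS, a log2 ratio of 1.08. Kng2 had 7.91 and 16.5 FPKM, a log2 ratio of 0.97, so that both were above the 1.5-fold line. They lie near each other on chromosome 16, Kng2 from 22985854 to 23029482 and Kng1 from 23057865 to 23082078, and are close copies, so reads could be divided between them and their values are uncertain. Fetub had 3.62 and 3.22 FPKM.

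Of the 19 cysteine cathepsin genes, 9 were at 0 in both groups, including the placental cathepsins Ctsj, Ctsm, Ctsq and Ctsr. Of the 8 past the minimum, 6 had a ratio above 0, against 49.8% of all genes past it, and the median log2 ratio was 0.28. Ctsh, an aminopeptidase gene that is not among the 10, had 78.7 FPKM in Control and 103 in LIPUS, a log2 ratio of 0.39. Ctso had 7.30 and 7.61 FPKM, and Ctsf 2.09 and 1.55 FPKM. Ctsa, which encodes a serine carboxypeptidase that protects lysosomal glycosidases, had 94.9 and 104 FPKM. Ctse, Ctsg and Napsa were at 0. With all listed cystatin and cysteine cathepsin genes included, and thus without Ctsa, the ratio of their summed transcripts was 0.844 in Control and 0.790 in LIPUS.

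Other lysosomal genes lay on both sides of 0. Beside the counts of this list and those below, 49.8% of all genes past the minimum had a ratio above 0. By level, that share ran from 47.1% between 1 and 10 FPKM to 63.0% from 100 FPKM on. Among the 21 glycosidases, lipases and sulfatases, 16 had a ratio above 0 and the median log2 ratio was 0.14. In this list Hexa had 90.8 FPKM in Control and 122 in LIPUS, Neu1 1.82 and 4.60, and Asah1 42.4 and 33.0. In contrast, 2 of the 7 genes for legumain, other lysosomal peptidases and cofactors had a ratio above 0, with a median of -0.23. Psap, the precursor of the saposins, had 399 and 466 FPKM, Grn (progranulin) 153 and 157, and Prcp, a carboxypeptidase, 13.9 and 8.65. Lgmn encodes legumain, an asparaginyl endopeptidase that matures cathepsins and that cystatin C and cystatin M/E inhibit, and it had 53.7 and 53.0 FPKM.

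The medians of the sorting and acidification genes lay near 0, with single genes on both sides. For mannose 6-phosphate sorting and the lysosomal membrane, 6 of 9 genes had a ratio above 0 and the median was 0.08. Cd63 had 581 FPKM in Control and 677 in LIPUS, Lamp1 248 and 263, Gnptg 14.0 and 18.01, and Nagpa 16.4 and 16.0. For the V-ATPase, the proton pump of lysosomes, 10 of 17 subunit genes had a ratio above 0 and the median was 0.06. Atp6v0c had 238 and 248 FPKM, Atp6ap1 89.9 and 97.8, Atp6v1f 44.0 and 54.2, and Atp6v1b2 13.3 and 8.58. Of the transcription factors of lysosomal genes, Tfeb had 6.01 and 3.73 FPKM, Tfe3 31.3 and 35.2, and Mitf 12.0 and 12.3. Among osteoclast-type acid resorption genes, 2 of 6 had a ratio above 0 and the median was -0.12, with Tcirg1 at 33.9 and 22.8 FPKM, Slc4a2 at 29.8 and 25.1, and Clcn7 at 7.72 and 11.2. Protease inhibitors of other families had a median of 0.16, with 7 of 9 ratios above 0. In that list Timp1 had 1497 and 1668 FPKM and Serpinh1 504 and 448, so that Timp1 was more abundant than Cst3.

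At a log2 ratio of 0.322 or more, which 14.6% of all genes past the minimum reached as higher and 15.4% as lower, the lists divided as follows. Of the glycosidases, lipases and sulfatases 6 of 21 were higher and 2 lower, and of the other protease inhibitors 4 of 9 were higher and 0 lower. Of the V-ATPase subunits 0 of 17 were higher and 3 lower (Atp6v1b2, Tcirg1 and Atp6v1c1), and of legumain and the other peptidases 0 of 7 were higher and 1 lower. The sorting and membrane genes had 1 of 9 higher and 0 lower, the transcription factors 0 of 3 higher and 1 lower, and the acid resorption genes 1 of 6 higher and 1 lower. That lower acid resorption gene is Tcirg1, which is also counted among the V-ATPase subunits. The cystatin family had 3 of 5 higher and the cysteine cathepsins 4 of 8, with 0 lower in each. With so few genes in a list, these counts are descriptions and set no list apart from the others.

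**Figure D5:**
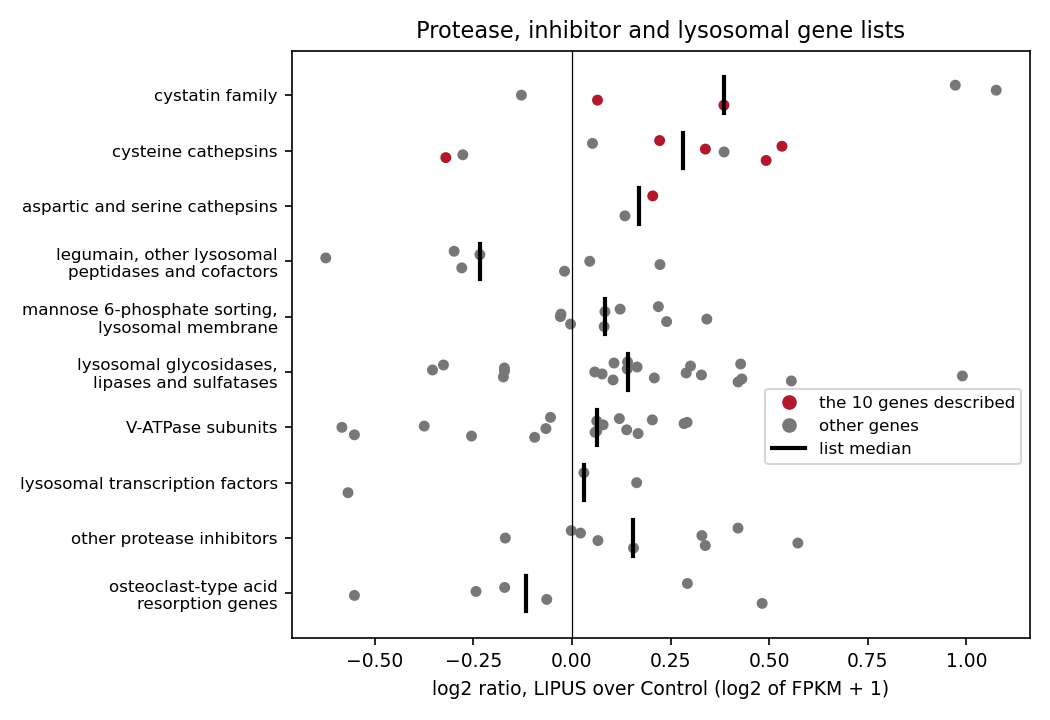
Log2 ratio of LIPUS over Control for each gene with a mean FPKM of at least 1 in 10 lists, red for the genes described and grey for others, with a black bar at each list's median. The cystatin (0.39) and cysteine cathepsin (0.28) medians lie right of 0, and those of legumain and other peptidases (-0.23) and of the acid resorption genes (-0.12) lie left of it. Tcirg1 is drawn both among the V-ATPase subunits and among the acid resorption genes.

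Markers of macrophages and osteoclasts, cells in which cathepsins are abundant, are given beside the cathepsins, and their part in the values was not tested. Of the macrophage and other blood cell markers, Ptprc, Adgre1, Tyrobp, Itgam, Cd52 and Laptm5 were listed at 0 in both groups. The summed level of the list was 15.8 FPKM in Control and 12.8 in LIPUS, with Cd68 at 5.32 and 1.72, Lyz2 at 2.01 and 0.189, Csf1r at 0.236 and 0.233, and Cd14 at 8.19 and 10.6. Of the 8 osteoclast markers, Calcr, Dcstamp, Oscar, Atp6v0d2 and Tnfrsf11a were at 0 in both groups. The list summed to 9.62 and 8.09 FPKM, of which Itgb3 held 9.41 and 6.94, Acp5 0.204 and 1.10, and Ocstamp 0 and 0.0623. Within the lists, Cd14 and Acp5 were higher in LIPUS, and Cd68, Lyz2 and Itgb3 were lower. Cd14 and Itgb3 were marked as testable, while Acp5, Cd68 and Lyz2 were marked as not tested. The osteoblast markers Sp7, Bglap and Bglap2, given below, were also marked as not tested. Of the 9 osteocyte markers, Sost, Mepe and Fgf23 were at 0, Phex was at 0 and 0.190 FPKM, and Dmp1 had 3.04 and 7.65 FPKM. Pdpn had 295 FPKM in Control and 402 in LIPUS, Gja1 176 and 170, Capg 283 and 332, and Fam20c 10.6 and 12.5. All 6 osteoblast markers past the minimum had a ratio below 0, and the list summed to 1550 and 1245 FPKM. These were Alpl (293 and 190 FPKM), Runx2 (24.4 and 14.8), Col1a1 (891 and 731), Col1a2 (334 and 303), Sp7 (5.86 and 3.75) and Bglap2 (1.57 and 1.43), while Bglap had 0 and 1.58 and Ibsp was at 0. In such bulk samples, fewer cells of a type and less RNA per cell cannot be told apart.

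Windows at the starts of the members were searched on both strands for AAAGGTCA (the motif of Nr4a factors), GCGTGGGCG and GCGGGGGCG (Egr motifs), and CACGTG and its longer form TCACGTG, which overlap and are bound by TFEB. The windows were the 250 bases before the RefSeq start on GRCm38.p6, which matched 7 of the 10 members. Of all 32817 windows, 1.34% hold AAAGGTCA, 0.536% GCGTGGGCG, 2.57% GCGGGGGCG, 6.02% CACGTG and 3.13% TCACGTG. AAAGGTCA and the Egr motifs occur in 0 of the 7 windows, which says only that these letters are not in these windows. CACGTG occurs in 2 windows, those of Ctsl and Ctsd. Its longer form TCACGTG occurs in the Ctsd window and not in that of Ctsl. Of the 7 windows, 4 lie wholly outside the member's gene in GENCODE and 3 reach into it. The Ctsl window lies with all its 250 bases inside the gene, that of Ctsd with 211 bases and that of Cst3 with 180 bases, so these 3 are not promoters of every annotated transcript. Both windows with CACGTG are thus among those that reach into a gene. A match of letters is a description and not a binding site. The windows of Ctsk and Ctsc, which have the highest and the lowest ratio among the members past the minimum whose window lies outside the gene, are printed 5′ to 3′, all in lower case since neither holds a motif searched. They lie on the plus strand at chr3:95498960-95499209 (Ctsk) and chr7:88277835-88278084 (Ctsc).
Ctsk: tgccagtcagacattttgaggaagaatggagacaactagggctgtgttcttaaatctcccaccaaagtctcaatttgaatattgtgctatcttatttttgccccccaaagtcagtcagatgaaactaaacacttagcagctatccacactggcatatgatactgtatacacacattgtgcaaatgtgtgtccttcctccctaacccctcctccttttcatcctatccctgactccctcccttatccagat
Ctsc: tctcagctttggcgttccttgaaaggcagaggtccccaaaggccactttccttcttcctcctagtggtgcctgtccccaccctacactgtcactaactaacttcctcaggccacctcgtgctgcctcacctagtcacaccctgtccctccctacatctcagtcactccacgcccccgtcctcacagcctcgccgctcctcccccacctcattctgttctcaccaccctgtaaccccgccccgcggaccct

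The 5 genes closest to Cst3 over the log2(FPKM + 1) values of both groups were Nme2, Tsc22d1, Il11, Cav1 and Rpl24. Nme2 had 463 FPKM in Control and 565 in LIPUS, Tsc22d1 452 and 559, Il11 457 and 557, Cav1 481 and 569, and Rpl24 490.5 and 576. Likeness was measured as Euclidean distance over only 2 values, from 0.0772 for Nme2 to 0.119 for Rpl24. All 5 had a lower log2 ratio than Cst3, between 0.23 and 0.31.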

How the data were processed

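RNA of 3 LIPUS and 3 Control cultures of MLO-Y4 cells was sequenced. Per the labels and the study's methods, reads were trimmed with Trimmomatic 0.36, aligned to GRCm38 with TopHat2 2.1.0 and Bowtie2 2.2.6.0, and quantified with Cufflinks and Cuffdiff on Ensembl transcripts. The labels name Cufflinks 2.1.1 and the methods another release. The authors deposited 1 FPKM per group, pooled over its libraries, for 53797 genes, of which 37321 are 0 in both. Their log2 fold changes, test statistics, p-values, q-values and significance calls were not used, and the test status was only noted.

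Ratios were computed as log2(FPKM + 1), LIPUS over Control, over genes with a mean FPKM of at least 1. A fold of 1.5 served as a description. With pooled values, no test, no SD and no replicate left out was possible, and the depth of each library, for which the study gives only a round number, cannot be read from the table. A pooled value can rest on a single culture, and this cannot be checked. Gene positions and exon overlaps came from GENCODE M21, an annotation of GRCm38, and promoter windows from RefSeq (GRCm38.p6). Protein sequences were not used here.

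The genes named are the 10 members, the other cystatin and cathepsin genes with a mean FPKM of at least 1, of each other list the 2 most abundant genes and those with the largest and smallest ratio, the markers, and the 5 genes closest to Cst3. Lgmn, Atp6v1c1, and genes named as listed at 0 or as sharing exons with a member, fall outside this rule, and some genes that the rule names are not reported here. The members and lists were chosen with earlier results of these data known. Alternatives were other pseudocounts, minimums, folds and scalings. The steps were run on simulated data with planted changes larger than those of the members past the minimum. The simulated noise was narrower than the spread of the ratios over all genes here. That run shows only that the steps work, and says nothing about differences of the size reported. Python 3.11.15, numpy 2.4.6, pandas 2.3.3 and matplotlib 3.10.9 were used.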

Additional observations from a re-analysis of the deposited data

How the results depend on the processing

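No member was past 1.5-fold as higher in the values reported, and that count became 4 at the lower line, a log2 ratio of 0.322, and 1 (Cst6) with no minimum FPKM. The count of lower members past 1.5-fold stayed at 0 under each alternative run. At the lower line, in settings added after seeing the data, the count of higher members ran from 3 to 5. The count of lower members there became 1 with a pseudocount of 0.1 FPKM (Ctsc), 1 when scaled to the same sum (Ctsc) and 1 with no minimum FPKM (Ctss), and was 0 in the others. A value was taken as moved when its fold changed by over 1.5 times, and 165 of the 170 values from the other settings, those added later left out, were not. That limit, a log2 shift of 0.585, is wider than the ratio of every member past the minimum. A ratio could thus fall to 0 and still be kept, so the count says little about how stable these ratios are. With a pseudocount of 0.1 or 10 FPKM, the log2 ratio of Cst6 was 1.64 or 0.11, and with 0.1 that of Ctss was -2.21. Medians of short lists shifted within that limit. The cystatin family median of 0.39 became 0.72 with no minimum FPKM. It was 0.68 with a minimum of 10 FPKM or with testable genes only. The acid resorption median of -0.12 became -0.40 with a minimum of 10 FPKM and -0.05 with a pseudocount of 10 FPKM. Over the pseudocounts and scalings run, the log2 ratio lay between 0.34 and 0.39 for Cst3, 0.45 and 0.50 for Ctsb, 0.49 and 0.54 for Ctsl, 0.29 and 0.35 for Ctsk, 0.02 and 0.07 for Cstb, and -0.37 and -0.20 for Ctsc. The summed FPKM of all genes was 1.03-fold higher in LIPUS. Scaling both groups to the same sum, 1e6, lowered the log2 ratio of 9 of the 10 members and raised that of Cst6 from 0.72 to 0.93. It turned 1 sign, that of the median of the lysosomal transcription factors (-0.01). This scaling enlarged all values while the pseudocount stayed at 1 FPKM, so the pseudocount weighed less on low values. The rise of Cst6 follows from that and not from equal sums. No paired analysis was possible because the table holds 1 pooled value per group, and leaving out single replicates could not be run for the same reason. The depth of each library cannot be read from the table, and Cst6 and Ctss have levels near 0.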
